A study of Mus musculus with 20 samples.

Results

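A list of 8 genes that mark B cells and antibody production, Ms4a1, Cd79a, Cd79b, Ighm, Igkc, Jchain, Pax5 and Ebf1, was followed in the epididymal white adipose tissue (eWAT) of C57BL/6J mice. Membership followed from the gene names and no cutoff on their values, and 6 of the 8 were among the 14776 genes of the deposited expression table. Ms4a1 (CD20) and Pax5 were not analysed here. RNA of 20 male mice was sequenced. The 6 NC mice were kept on normal chow from 6 weeks of age, for 14 weeks before the treatment of the other groups began. The 7 HFD mice were fed a high-fat diet from 6 weeks of age for 14 weeks and received saline during 6 further weeks on this diet. The 7 SZ-A mice were fed in the same way. In place of saline they received Ramulus Mori (Sangzhi) alkaloids, an extract of mulberry twig, by gavage. HFD against NC compares the diets, SZ-A against HFD asks what the alkaloids did on the same diet, and SZ-A against NC asks what remained. The paper names saline by gavage for the HFD group and not for the NC group. If the NC mice received none, diet and gavage cannot be told apart in HFD against NC.

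B cells carry an antibody on their surface as part of the B cell receptor. The products of Cd79a and Cd79b form the signalling pair that carries the receptor, and Ms4a1 is a surface protein of B cells. Ighm encodes the constant region of the mu heavy chain of IgM, and Igkc that of the kappa light chain. Plasma cells, the end stage of the B lineage, turn most of their effort to secreting antibody and so hold very high levels of immunoglobulin transcripts. Jchain encodes the joining chain that links IgM and IgA units into polymers. Pax5 and Ebf1 are transcription factors that commit cells to the B lineage, but Ebf1 is also expressed in adipocytes and their progenitors, so that in fat it is not a marker of B cells alone. In visceral fat, B cells lie among the adipocytes and in small lymphoid clusters.

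In GRCm38, Ighm lies on chromosome 12 from 113418558 to 113422730 on the minus strand and Igkc on chromosome 6 from 70726435 to 70726966 on the plus strand. Jchain lies on chromosome 5 from 88519809 to 88527891, Cd79a on chromosome 7 from 24897381 to 24902197, Cd79b on chromosome 11 from 106311341 to 106314762 and Ebf1 on chromosome 11 from 44617317 to 45008091. Expression was deposited as FPKM, which scales the fragments of a gene by its length and by the size of the library. Of the 432 immunoglobulin genes that GENCODE release M21 annotates, 4 were in the table, namely Ighm, Igkc, Igha (the constant region of IgA) and Iglc2 (a lambda light chain constant region). No variable segment was among them (0), so that the values describe constant regions and not the antibody repertoire. Iglc2 has near-identical neighbours, between which reads can be split, and its values are uncertain.

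The stretch before the first annotated base of Cd79a is shown because this promoter is a textbook target of Ebf1, and the stretch before Jchain because Jchain was among the genes that fell. Capitals mark letters found by a motif search. The sequences are those of RefSeq on GRCm38.p6, Cd79a at chr7:24897247-24897380 on the plus strand and Jchain at chr5:88527898-88528147 on the minus strand.
Cd79a: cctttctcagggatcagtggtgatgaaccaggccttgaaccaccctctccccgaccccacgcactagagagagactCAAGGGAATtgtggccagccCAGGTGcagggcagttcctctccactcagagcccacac
Jchain: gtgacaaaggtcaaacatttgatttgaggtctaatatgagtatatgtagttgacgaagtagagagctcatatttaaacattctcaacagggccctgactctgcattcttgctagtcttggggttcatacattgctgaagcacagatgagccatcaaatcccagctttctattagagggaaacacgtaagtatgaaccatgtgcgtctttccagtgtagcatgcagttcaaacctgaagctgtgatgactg

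The windows searched held 300 bases around the start of a RefSeq transcript, on both strands. The letters CAAGGGAAT, part of the Ebf site and chosen after the Cd79a sequence was read, stood at bases 77 to 85 of the Cd79a window, and 0.244% of the 32851 windows in the genome held them. The E-box CAGGTG, a site of the E proteins that work with Ebf1, stood at bases 97 to 102 of the same window and was present in 20.2% of all windows. In the Jchain window, read along the gene, the E-box lay on the strand opposite to the gene at bases 256 to 261, beyond the stretch shown. The full Ebf palindrome, present in 0.904% of windows, and the octamer ATGCAAAT, present in 1.74%, had no match in the windows of Cd79a, Jchain or Ebf1. These are matches of letters and not measured sites.

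Between 13565483 and 19383935 reads per mouse fell on the genes of the table, as recovered from the FPKM. NC replicate 6 stood apart, and results that rest on it are given with and without it. Its median correlation with the other NC mice was 0.765, while for the other libraries this value within their group lay between 0.881 and 0.985. Adipoq, which encodes adiponectin and defines adipocytes, was 26.6 FPKM in it, against 859 to 2278 FPKM in the other NC mice and 222 to 2668 FPKM in the HFD and SZ-A mice. Of 13 epididymis and vas markers, only 4 were in the table (Lcn2, Actg2, Krt18 and Ramp3). Their summed level was 3975 FPKM in NC replicate 6, of which Lcn2 made 2431 FPKM. It was at most 1046 FPKM in the other NC mice, 7.05 FPKM in HFD mice and 726 FPKM in SZ-A mice. Krt18, one of these markers, was above 100 FPKM in 5 libraries (NC replicates 1, 2 and 6, SZ-A replicates 2 and 7). Mice were numbered within groups, and nothing in the labels ties a number to a batch.

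The immunoglobulin genes were by far the most abundant members and tended to be highest in HFD mice. Ighm had its lowest, median and highest value at 1.2, 98.6 and 281 FPKM in NC mice, at 156, 317 and 632 FPKM in HFD mice and at 43.9, 115 and 200 FPKM in SZ-A mice. Of the HFD mice, 4 were above every NC and SZ-A mouse, while the groups overlapped in each comparison. Igkc ran from 2.06 over a median of 328 to 510 FPKM in NC mice, from 155 over 517 to 1581 FPKM in HFD mice and from 27.1 over 172 to 404 FPKM in SZ-A mice. HFD replicates 1, 2, 6 and 7 were above every NC and SZ-A mouse for Igkc, and the other 3 lay within the range of the NC mice. Jchain ran from 0.0273 over a median of 14.5 to 42.9 FPKM in NC mice, from 7.04 over 21.5 to 80.9 FPKM in HFD mice and from 1.42 over 8.79 to 16.5 FPKM in SZ-A mice. HFD replicate 1 was the highest mouse and NC replicate 6 the lowest for each of Ighm, Igkc and Jchain. Among the HFD mice, replicate 1 also had the lowest summed adipocyte markers, 2088 FPKM, and the lowest summed red blood cell markers, 55.8 FPKM. Its summed macrophage markers, 7444 FPKM, and T cell markers, 21.1 FPKM, were the highest of that group, and its median correlation with the group, 0.962, was the lowest. Without NC replicate 6, the lowest NC values were 37.1 FPKM for Ighm, 53.7 FPKM for Igkc and 3.67 FPKM for Jchain, all in NC replicate 1.

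The receptor chains were far scarcer. Cd79a had its lowest, median and highest value at 0.0471, 1.73 and 2.93 FPKM in NC mice, at 0.921, 1.82 and 7.65 FPKM in HFD mice and at 0.3, 1.53 and 5.89 FPKM in SZ-A mice. The medians were close and the groups overlapped widely, and the reads behind a value ran from 1 in NC replicate 6 to 199 in HFD replicate 6. Cd79b ran from 0.0959 over a median of 2.59 to 6.57 FPKM in NC mice, from 1.65 over 2.55 to 8.93 FPKM in HFD mice and from 0.267 over 2.09 to 5.16 FPKM in SZ-A mice. HFD replicate 6 was the highest mouse for both Cd79 genes, and SZ-A replicate 6 the lowest of the SZ-A mice for both. Ebf1 ran from 0.295 over a median of 9.29 to 14.7 FPKM in NC mice, from 5.33 over 9.7 to 15.7 FPKM in HFD mice and from 8.13 over 9.6 to 16.9 FPKM in SZ-A mice. Its coefficient of variation was 34.4% in HFD, 33.4% in SZ-A and 38.1% in NC mice other than replicate 6, the lowest of the 6 members in each, against 51.2% to 91.2% for the other members.

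On the scale of FPKM, which is per length, the order of the medians in HFD mice was Igkc at 517, Ighm at 317, Jchain at 21.5, Ebf1 at 9.7, Cd79b at 2.55 and Cd79a at 1.82. Igkc and Ighm overlapped widely, as did Cd79b and Cd79a. Of the B cell markers, 2 of 5 were in the table, and the sum of both ran from 2.57 to 16.6 FPKM with HFD and from 0.568 to 11.1 FPKM with SZ-A. All 5 plasma cell markers were present, among them Ighm, Igkc and Jchain.

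**Figure D1:**
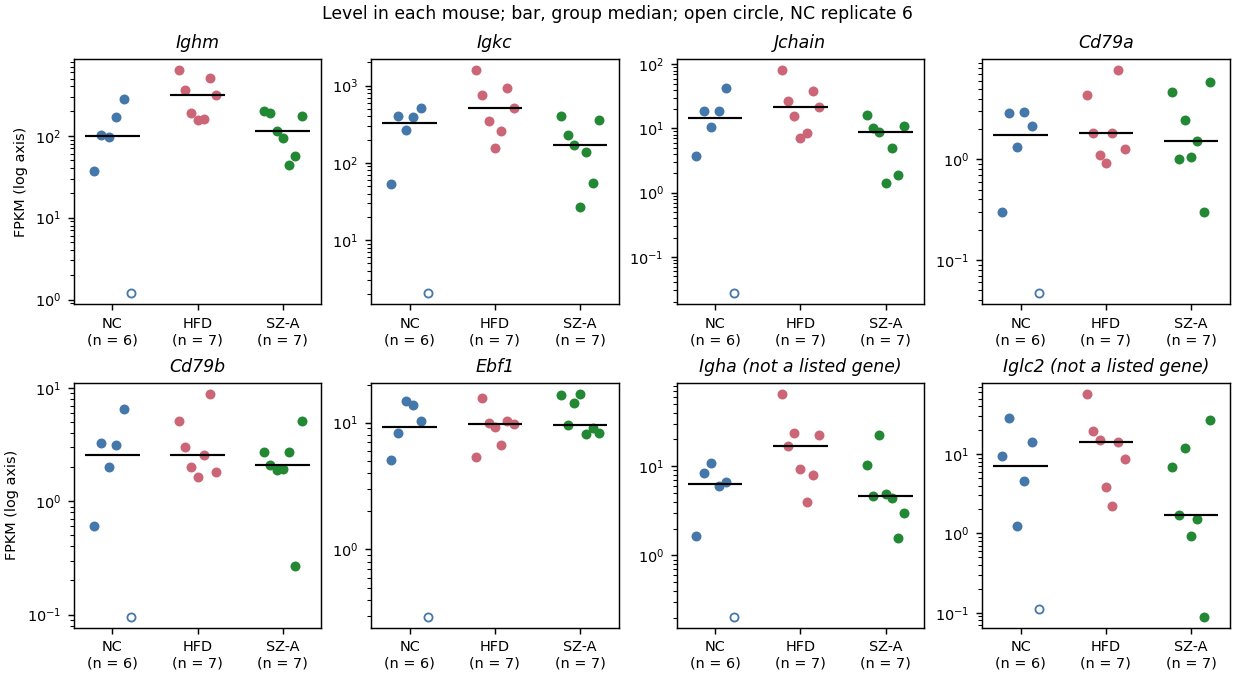
FPKM (log axis) of the 6 members in the table and of Igha and Iglc2 in each of 6 NC, 7 HFD and 7 SZ-A mice. Each point is a mouse, the bar is the group median and the open circle is NC replicate 6. The HFD median of Igkc, 517 FPKM, stood above those of the other groups, while the medians of Cd79a, Cd79b and Ebf1 were close together.

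With SZ-A, the antibody genes Igkc, Ighm and Jchain fell and the receptor genes did not pass the test. Of the 6 members tested, 3 fell from HFD to SZ-A and none rose (0), by limma on log2(FPKM + 1) with an adjusted p under 0.05 over 14695 genes. Over all genes, 22.8% passed in either direction with 9.47% higher and 13.3% lower. Igkc fell 3.50-fold, by 1.81 on the log2 scale (SE 0.62, limma adjusted p = 0.0471), from a median of 517 FPKM in the HFD group to 172 FPKM in the SZ-A group. Ighm fell 2.65-fold, by 1.40 (SE 0.41, limma adjusted p = 0.0228), from 333 ± 185 to 126 ± 64.3 FPKM (mean ± SD, n = 7 each). Jchain fell 3.1-fold, by 1.63 (SE 0.54, limma adjusted p = 0.0401). These folds are on the FPKM + 1 scale. The groups overlapped for all 3. With a log2 change above 1.5 also required, Igkc and Jchain passed, 2 of 6 members, against 0.864% of all genes. In bulk tissue, fewer cells of a type and less RNA per cell cannot be told apart.

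Cd79a differed by -0.13 (SE 0.40, limma adjusted p = 0.836), Cd79b by -0.40 (SE 0.33, limma adjusted p = 0.399) and Ebf1 by 0.28 (SE 0.22, limma adjusted p = 0.362) on the log2 scale. Among the alternatives run, Ebf1 passed where each library was weighted by its quality, at 0.52 (limma adjusted p = 0.0191). Igha, which was 65 FPKM in HFD replicate 1 and between 4.0 and 23.4 FPKM in the other HFD mice, differed by -1.33 (SE 0.54, limma adjusted p = 0.0873), with 1.56 to 22.2 FPKM in SZ-A mice. Iglc2 differed by -1.44 (SE 0.73, limma adjusted p = 0.163), the lowest value being 0.0893 FPKM, 1 read, in SZ-A replicate 6. All 4 immunoglobulin constant genes and Jchain thus had negative differences, of which those of Igha and Iglc2 did not pass.

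The adjusted p of Igkc and Jchain lay near the threshold. Leaving out 1 mouse at a time, Ighm kept its call in 13 of 14 fits and lost it without HFD replicate 1 (limma adjusted p = 0.0507). Igkc kept it in 4 and Jchain in 5 of 14 fits, with adjusted p up to 0.0996 and 0.0823 without HFD replicate 1. Both lost it without HFD replicates 1, 2, 3, 6 or 7 and without SZ-A replicates 3, 4, 5 or 6, and Igkc also without HFD replicate 5, while the change stayed between -2.09 and -1.41 for Igkc and between -1.88 and -1.32 for Jchain on the log2 scale. With all 3 groups in the fit, which lets NC replicate 6 enter the estimate of spread, 0 of 6 members passed in limma and 1 had an unadjusted p under 0.05. With that mouse left out of the same fit, 3 passed again. Without the SZ-A libraries of Krt18 above 100 FPKM, Igkc fell by 2.21, Ighm by 1.70 and Jchain by 1.91.

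**Figure D2:**
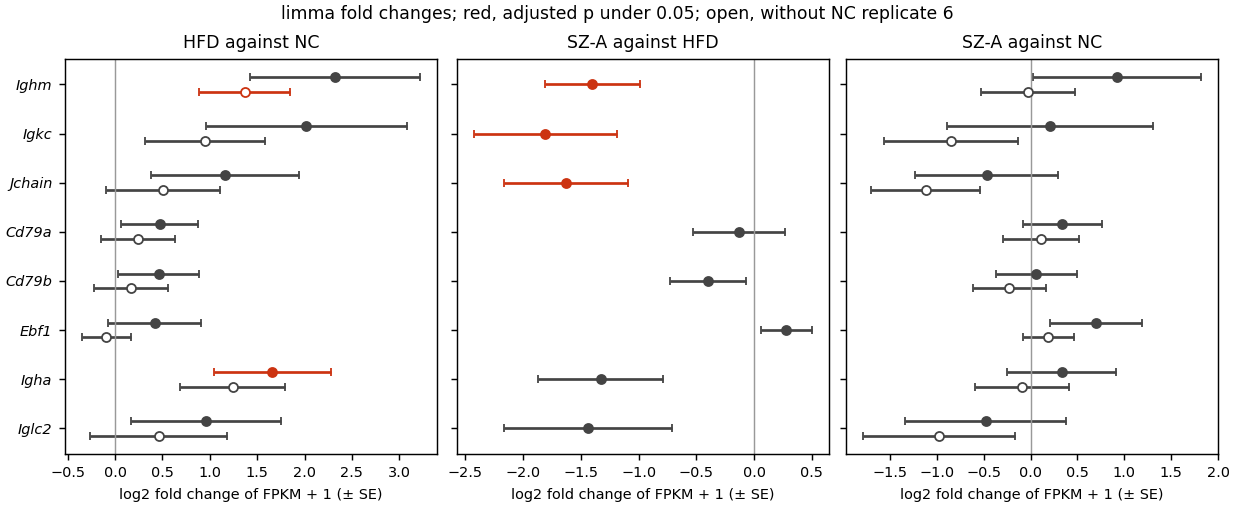
Log2 fold changes of FPKM + 1 (x axis) for the 6 members and for Igha and Iglc2 in each comparison, with bars of 1 SE from limma. Filled points use all mice, open points leave out NC replicate 6, and red marks an adjusted p under 0.05. Red points in SZ-A against HFD are Ighm at -1.40, Igkc at -1.81 and Jchain at -1.63.

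Markers of some other cell types moved in the same comparison. Of 8 macrophage markers, 7 fell with SZ-A and none rose (0), their summed level being 2342 to 7444 FPKM with HFD and down to 1060 to 3520 FPKM with SZ-A. The SZ-A mice were not uniform in this. Replicates 5 and 6 had sums of 3520 and 2677 FPKM, within the HFD range, against 1060 to 1250 FPKM in the other SZ-A mice. All 5 red blood cell markers rose, with a sum of 55.8 to 538 FPKM under HFD and of 364 to 9439 FPKM under SZ-A. The highest sum was that of SZ-A replicate 5, and the next was 2248 FPKM in SZ-A replicate 1. Of 7 adipose progenitor markers, 5 fell, of 8 adipocyte markers 1 rose, and of 10 T cell markers 1 fell. Over all genes, 13.3% fell and 9.47% rose, so that the adipocyte and T cell counts were near those shares. The 2 B cell markers in the table are Cd79a and Cd79b, neither of which passed. The part of these cell types in the fall of the antibody genes was not tested.

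In HFD against NC, 0 of 6 members passed in limma with all mice, where 41.1% of the 14706 genes tested did, and 1 of 6 had an unadjusted p under 0.05, where 49.6% of genes did. A fit with voom on the recovered reads also called 0. The log2 differences were 2.32 for Ighm (SE 0.90, limma adjusted p = 0.0534), 2.02 for Igkc (SE 1.06, limma adjusted p = 0.143) and 1.16 for Jchain (SE 0.78, limma adjusted p = 0.25). They were 0.47 for Cd79a (SE 0.41), 0.46 for Cd79b (SE 0.43) and 0.42 for Ebf1 (SE 0.49), none of which passed. Without NC replicate 6, Ighm was 2.59-fold higher in HFD, by 1.37 (SE 0.48, limma adjusted p = 0.0325), which made 1 of 6 members called where 45.2% of genes were. The other members did not pass, with Igkc at 0.95 (SE 0.63, limma adjusted p = 0.234), Jchain at 0.51 (SE 0.60), Cd79a at 0.24 (SE 0.39), Cd79b at 0.17 (SE 0.39) and Ebf1 at -0.09 (SE 0.26). Igha, which lay between 0.206 and 10.8 FPKM in NC mice, passed with all mice at 1.66 (SE 0.62, limma adjusted p = 0.0465) and did not without NC replicate 6, at 1.24 (limma adjusted p = 0.0832). Without all libraries of Krt18 above 100 FPKM, which leaves NC replicates 3, 4 and 5, Ighm differed by 0.81 (limma adjusted p = 0.193) and Igha by 0.93 (limma adjusted p = 0.249), and 0 of 6 members passed. Leaving out 1 mouse at a time, Ighm passed in 3 of 13 fits, those without NC replicate 4, 5 or 6, with adjusted p from 0.0262 to 0.0975, and Igha in 4 of 13 fits, with adjusted p from 0.0241 to 0.0992, both by limma.

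The NC mice without replicate 6 held 137 ± 93.2 FPKM of Ighm (SD, n = 5) against 333 ± 185 FPKM in HFD mice (SD, n = 7). In this comparison 8 of 8 macrophage markers rose, where 21% of all genes did with all mice, and 7 rose without NC replicate 6. Their sum was 193 to 578 FPKM in the NC mice other than replicate 6, which had 54.3 FPKM, and the HFD sums are given above. Their part in the rise of Ighm was not tested.

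In SZ-A against NC, 0 of 6 members passed in limma and 0 had an unadjusted p under 0.05, while 4.61% of genes passed and 19% had such a p. A voom fit called 0, and so did the fit without NC replicate 6, where 5.5% of genes passed. Ighm differed by 0.92 (SE 0.90) with all mice and by -0.03 (SE 0.50) without NC replicate 6. Igkc differed by 0.21 (SE 1.10) and -0.85 (SE 0.71), and Jchain by -0.47 (SE 0.76) and -1.12 (SE 0.58, limma adjusted p = 0.332). A difference between SZ-A and NC mice was thus not detected for any member, and with these standard errors this does not show that the groups were alike.

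Whether antibody genes and receptor genes moved apart was tested within mice, since a ratio of 2 genes in a mouse does not depend on library scaling. The ratios of Igkc, Ighm and Jchain to Cd79a and Cd79b were chosen after the calls were seen. Igkc was 366, 417, 311, 168, 142, 121 and 410 times Cd79a in the HFD mice and 87.5, 227, 71.0, 25.8, 90.1, 182 and 61.4 times in the SZ-A mice. The log2 ratio was lower by 1.51 in SZ-A (exact permutation test, two-sided, p = 0.00991), with an adjusted p of 0.0594 over the 18 tests of this family. Jchain to Cd79a gave -1.55 with the same exact p and adjusted p. Ighm to Cd79b was the only ratio of the 18 that passed, at 57.7 to 174 in HFD and 12.5 to 61.2 in NC mice, a log2 difference of 1.39 (exact permutation test, adjusted p = 0.042), and without NC replicate 6 it was 1.08 (exact adjusted p = 0.0594). The unequal change of Igkc or Jchain and Cd79a with SZ-A therefore did not pass the adjusted threshold.

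In SZ-A against HFD, no ratio among the antibody genes passed. Jchain was 0.0329 to 0.0512 times Igkc under HFD and 0.0299 to 0.0524 times under SZ-A, and the log2 ratio differed by -0.03 (exact permutation test, p = 0.815). In HFD against NC it differed by -0.06 with all mice and by -0.41 without NC replicate 6 (exact permutation p = 0.0568), where that mouse had the lowest ratio, 0.0132. Jchain rested on 1 read in that mouse, so that its ratios of Jchain to other genes are uncertain. Jchain to Ighm depended on that mouse and on the pseudocount. With all mice and no pseudocount it differed by -0.42 in HFD against NC and by -0.86 in SZ-A against NC (exact permutation, adjusted p = 0.777 and 0.65). Without NC replicate 6, whose ratio was 0.0227 against 0.0988 to 0.183 in the other NC mice, the differences were -0.83 and -1.27 (exact permutation p = 0.0101 and 0.0152, adjusted p = 0.0707 and 0.0795). With all mice and a pseudocount of 0.1 they were -0.77 and -1.18 and passed (exact permutation, adjusted p = 0.049 for both). Ighm to Igkc differed by 0.41 in SZ-A against HFD (exact permutation p = 0.442), Igha to Ighm by -0.10 (exact permutation p = 0.867) and Cd79b to Cd79a by -0.37 (exact permutation p = 0.217). Of the 21 tests planned for such pairs, 1 passed after adjustment, Ebf1 to Pparg in SZ-A against NC.

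**Figure D3:**
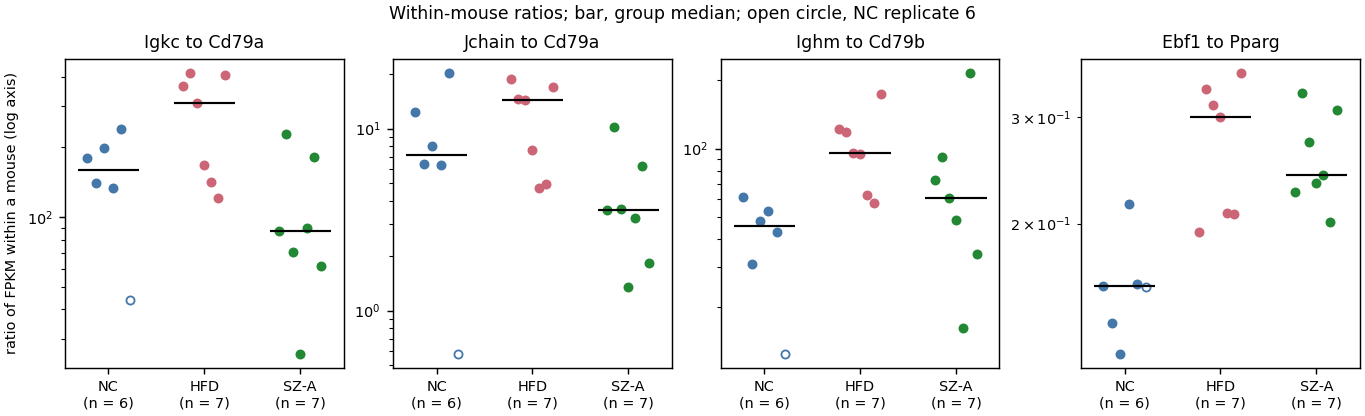
Ratio of FPKM of 2 genes within each mouse (log axis) by group, with a bar at the group median and an open circle for NC replicate 6. Igkc to Cd79a lay between 121 and 417 in HFD and between 25.8 and 227 in SZ-A mice, and Ebf1 to Pparg lay between 0.122 and 0.215 in NC mice.

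Across mice, the levels of the antibody genes varied together. Over 20 mice, Igkc and Jchain had a Pearson r of 0.96 and a Spearman rho of 0.98 on log2(FPKM + 1), each with a permutation p of 1.0e-05, the smallest that 100000 permutations can give, and an adjusted p of 3.7e-05 over 15 pairs of members. Leaving out the 2 mice farthest from the median of Igkc gave r = 0.96, and r within groups was 0.96. Ighm and Igkc had r = 0.92 and rho = 0.89 (permutation p = 1.0e-05 for both, adjusted p = 3.7e-05). Leaving out the 2 mice farthest for Ighm gave 0.81. Cd79a and Cd79b had r = 0.88 and rho = 0.86 (permutation p = 1.0e-05 for both, adjusted p = 3.7e-05), and 0.84 without the 2 farthest mice. Between receptor and antibody genes the values were lower. Cd79a and Igkc had r = 0.74 and rho = 0.73 (permutation p = 8.0e-05 and 3.5e-04, adjusted p = 1.5e-04 and 7.5e-04), and without NC replicate 6 r was 0.70 and rho 0.69 (permutation p = 9.6e-04 and 0.00158). Within a mouse, the genes of a pair share the library scaling, which enters each of these values.

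Ebf1 stood outside this set. Over 20 mice, Ebf1 and Ighm had r = 0.70 (permutation p = 0.0171, adjusted p = 0.0234) but rho = 0.32 (permutation p = 0.168, adjusted p = 0.229), and without the 2 mice farthest from the median of Ighm r was -0.14, so that the relation rested on those mice. Without NC replicate 6, r of Ebf1 with the other 5 members lay between -0.07 and 0.10, with permutation p from 0.667 to 0.882.

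**Figure D4:**
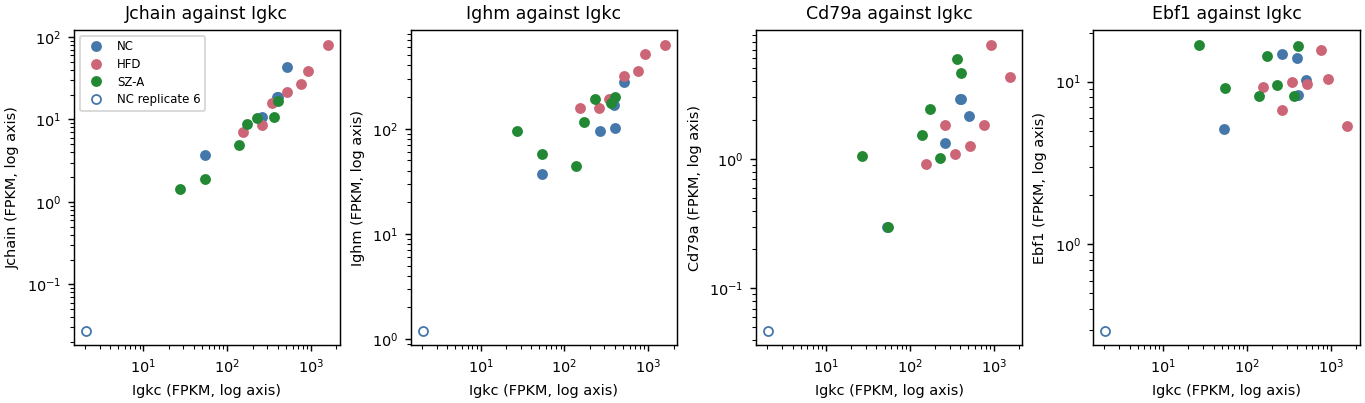
FPKM of Jchain, Ighm, Cd79a and Ebf1 (y axes, log) against Igkc (x axis, log) in the 20 mice, coloured by group, with an open circle for NC replicate 6. Jchain followed Igkc along a line (r = 0.96), while Ebf1 showed no trend once NC replicate 6 was set aside (r = -0.06).

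The genes whose pattern was most like that of the B cell members other than Ebf1 were, by Pearson r over 20 mice, Serpina3g at 0.87, Gda at 0.82, Ifi47 at 0.80, Cd55 at 0.79 and Sulf1 at 0.77. Serpina3g encodes a serpin, Gda guanine deaminase, Ifi47 an interferon-induced GTPase, Cd55 a complement regulator and Sulf1 a heparan sulfate sulfatase. NC replicate 6 was low for all of them. Ranked over the 19 other mice, the leading genes were Serpina3g at 0.85, Mzb1 at 0.83, Cxcl13 at 0.73, Iglc2 at 0.71 and Gda at 0.68. Mzb1 encodes a chaperone of the B lineage that helps assemble IgM, and Cxcl13 a chemokine that draws B cells into lymphoid tissue. For Mzb1 the highest mouse was HFD replicate 1 at 17.4 FPKM, as for Igkc, and its fall in SZ-A against HFD, -1.03 (SE 0.45, limma adjusted p = 0.113), did not pass. Cxcl13 ran from 0.53 to 29.9 FPKM under HFD and from 0.749 to 22.7 FPKM under SZ-A.

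Ebf1 was followed most closely by Cpne8, Abcd2 and Fbln5 (r = 0.98 each), Tek and Cavin2 (0.97 each) over 20 mice, and these values were 0.94 for Cpne8 and 0.91 for each of the others without NC replicate 6. Abcd2 encodes a peroxisomal fatty acid transporter, Fbln5 a protein of elastic fibres, Tek a receptor of endothelial cells and Cavin2 a protein of caveolae. These likenesses describe how the genes were chosen and carry no test.

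Ebf1 was also compared with Pparg, the master regulator of adipocytes. Ebf1 was 0.158, 0.137, 0.122, 0.215, 0.159 and 0.157 times Pparg in the NC mice, 0.194 to 0.354 times in the HFD mice and 0.201 to 0.328 times in the SZ-A mice. The log2 ratio was higher by 0.71 in SZ-A than in NC (exact permutation p = 0.00175, adjusted p = 0.0367 over 21 tests), and by 0.77 in HFD than in NC (exact permutation p = 0.00524, adjusted p = 0.0551). In SZ-A against HFD it differed by -0.06 (exact permutation p = 0.73). Without NC replicate 6 the first difference was again 0.71 with an adjusted p of 0.053 by the exact test, so that the value stayed and the call did not. Of 8 genes of the Ebf family and its partners in fat, Zfp521, a zinc finger protein that binds Ebf1, was the single gene called in either comparison with HFD when all mice were used, 0.87 higher in HFD than NC (SE 0.22, limma adjusted p = 0.00742) and 0.45 lower in SZ-A than HFD (SE 0.14, limma adjusted p = 0.0299). In HFD against NC it was 0.69 higher without NC replicate 6 and 0.44 higher without the libraries of Krt18 above 100 FPKM, and passed in both. Pparg itself differed by -0.11 (SE 0.66, limma adjusted p = 0.909) in HFD against NC with all mice and was 0.86 lower without NC replicate 6 (SE 0.26, limma adjusted p = 0.018), the other gene of this list then called. Over all genes, 41.1% passed in HFD against NC with all mice and 45.2% without NC replicate 6. In SZ-A against HFD, 22.8% of all genes passed.

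Further genes of the pathway were taken from lists, some of which also hold members. Cd79a and Cd79b are in that of receptor signalling and Jchain in that of plasma cell genes. Ebf1 is in those of transcription factors and of the Ebf family. Of 20 genes of B cell receptor signalling in the table, 15 fell with SZ-A, where 13.3% of all genes fell, and none rose (0), with a median log2 change of -0.97 where that of all genes was 0.03, and 17 had risen in HFD against NC, with a median of 1.89 where that of all genes was -0.04 and 21% of genes rose. The latter count was again 17 without NC replicate 6. Pik3ap1, an adaptor of PI3 kinase, fell by 2.05 (SE 0.28, limma adjusted p = 4.6e-04), and Rac2, a small GTPase of blood cells, by 1.42 (SE 0.31, limma adjusted p = 0.00504). Prkcb, a protein kinase C, fell by 1.29 and Vav1, an exchange factor for Rac proteins, by 1.27. Syk, the kinase that binds the Cd79 pair, fell by 1.04 (SE 0.31, limma adjusted p = 0.0269) from 29.3 to 48.9 FPKM in HFD, against 1.82 FPKM for the median of Cd79a. SZ-A replicates 5 and 6, at 45.9 and 39.8 FPKM of Syk, lay within that HFD range. The signalling genes work in macrophages too, whose markers moved in the same direction as given above. The part of macrophages in the change of these genes was not tested.

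Of 18 surface and co-receptor genes, 10 fell with SZ-A and 2 rose, where 13.3% of all genes fell and 9.47% rose, with a median of -0.49. Of these 18 genes, 9 were higher and 1 was lower in HFD than NC, with or without NC replicate 6. With all mice, 21% of all genes were higher in that comparison and 41.1% passed in either direction. Cd72, an inhibitory co-receptor, was 0.261 to 0.968 FPKM in NC, 9.2 to 21.5 FPKM in the HFD mice and 0.93 to 5.53 FPKM in the SZ-A mice. The HFD mice did not overlap either other group, as 20.5% of genes did not in HFD against NC and 6.08% in SZ-A against HFD. It fell by 2.08 (SE 0.28, limma adjusted p = 4.3e-04). Cd180, a Toll-like receptor homologue, fell by 1.78 and Cd53, a tetraspanin of blood cells, by 1.37. Cd83, an activation marker, fell by 1.23, although SZ-A replicate 5, at 59.9 FPKM, was above every HFD mouse (36.5 to 58.8 FPKM). Cd24a, found on young B cells and on epithelia, rose by 1.71 (SE 0.56, limma adjusted p = 0.0388) and was 3.48 lower in HFD than NC (3.25 lower without NC replicate 6). Cd24a reached 71.9 and 47.1 FPKM in SZ-A replicates 2 and 7, those with Krt18 above 100 FPKM, and without such libraries it differed by 0.85 (limma adjusted p = 0.0521). The tetraspanin Cd81 rose by 0.42 (SE 0.15, limma adjusted p = 0.0481), and differed without these libraries by 0.44 (limma adjusted p = 0.0651). Genes taken to be more limited to lymphocytes differed among themselves. Cd22, an inhibitory co-receptor of B cells, was 0.0408 to 0.854 FPKM in NC mice, 3.21 to 5.19 FPKM in HFD mice and 0.597 to 3.29 FPKM in SZ-A mice. It was 1.90 higher in HFD than NC (SE 0.15, limma adjusted p = 4.3e-07), 1.83 higher without NC replicate 6, and fell by 1.03 with SZ-A (SE 0.21, limma adjusted p = 0.00361). Among SZ-A mice, Cd22 was highest in replicates 5 and 6, at 3.29 and 2.81 FPKM, the mice with the highest summed macrophage markers. Replicate 6 had the lowest Cd79a and Cd79b of that group, 0.3 and 0.267 FPKM. Which cells gave the Cd22 signal was not tested. Another 5 of the genes taken as lymphocyte genes did not pass in either comparison. With SZ-A, Fcrla, an Fc receptor-like protein, differed by 0.01 (SE 0.16), Cxcr5, the receptor of Cxcl13, by -0.07 (SE 0.17), Spib, a transcription factor of the Ets family, by -0.17 (SE 0.25), Bank1, a scaffold of the receptor, by -0.17 (SE 0.09), and Ikzf3, a transcription factor of lymphocytes, by -0.11 (SE 0.09). These 5 and Cd22 were picked after their values were seen. The 5 had HFD means from 0.396 FPKM (Ikzf3) to 0.947 FPKM (Fcrla), and at such levels the added 1 FPKM shrinks a change. Their small differences therefore do not show that they were unchanged. Fcrl1, also picked so and of the same family as Fcrla, passed in both, 0.41 higher in HFD than NC (SE 0.12, limma adjusted p = 0.0122) and 0.37 lower in SZ-A than HFD (SE 0.11, limma adjusted p = 0.022), at 0.0639 to 1.28 FPKM over all mice.

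Of 3 genes of the BAFF and APRIL system, which keep B cells and plasma cells alive, 3 were higher in HFD than NC, with or without NC replicate 6, where 21% of all genes were with all mice. Tnfrsf13b, the receptor TACI, was 0.121 to 1.57 FPKM in NC, 4.19 to 8.28 FPKM in the HFD mice and 1.44 to 4.48 FPKM in the SZ-A mice. It was 1.80 higher in HFD than NC (SE 0.19, limma adjusted p = 7.6e-06), 1.67 higher without NC replicate 6, and fell by 0.80 with SZ-A (SE 0.17, limma adjusted p = 0.00444). Tnfsf13b, the ligand BAFF, rose by 0.53 (limma adjusted p = 0.00613) and fell by 0.32 (limma adjusted p = 0.0259). Tnfsf13, the ligand APRIL, rose by 0.60 (limma adjusted p = 0.00692) and differed by -0.16 with SZ-A (limma adjusted p = 0.563). Without the libraries of Krt18 above 100 FPKM, Tnfsf13b differed by 0.30 in HFD against NC and by -0.26 in SZ-A against HFD (limma adjusted p = 0.0687 and 0.0642) and Tnfsf13 by 0.49 in HFD against NC (limma adjusted p = 0.0595), so that these 3 calls were lost, while both calls of Tnfrsf13b were kept.

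Of 14 plasma cell genes, 3 fell with SZ-A and none rose (0), against 13.3% and 9.47% of all genes, with a median of -0.08 where that of all genes was 0.03. They were Jchain, Prdm1, the regulator that sets up plasma cells, which fell by 0.50 (SE 0.08, limma adjusted p = 0.00123), and Edem1, which takes part in the disposal of misfolded proteins, which fell by 0.46 (SE 0.11, limma adjusted p = 0.00858). Xbp1, which drives the secretory programme and was picked after its values were seen, differed by 0.08 (SE 0.11) and Sdc1 (CD138) by -0.61 (SE 0.30, limma adjusted p = 0.152). In HFD against NC, 3 of the 14 genes were higher and 2 lower, and 4 and 2 without NC replicate 6. With all mice, 21% of all genes were higher in this comparison and 41.1% passed in either direction, so that the counts of this list were near those shares. Prdm1 was 0.75 higher (SE 0.17, limma adjusted p = 0.00349) and Edem1 1.26 higher (SE 0.16, limma adjusted p = 4.3e-05), or 0.85 and 1.15 without NC replicate 6. Sdc1 was 1.81 higher (limma adjusted p = 0.0162), and 2.43 higher without NC replicate 6, with 34.6 to 72.2 FPKM in HFD mice, 6.89 to 9.71 FPKM in NC mice other than replicate 6 and 120 FPKM in that mouse, the highest of all. Irf4, used by plasma cells, macrophages and adipocytes, was 2.30 lower in HFD than NC (SE 0.57, limma adjusted p = 0.00563), and Eaf2, an elongation factor, was 0.32 lower (SE 0.11, limma adjusted p = 0.0295), or 2.74 and 0.37 lower without NC replicate 6. Eaf2 had means of 0.599 FPKM in NC and 0.267 FPKM in HFD mice, levels at which the added 1 FPKM shrinks a change. Of 14 B cell transcription factors tested, 5 fell with SZ-A, where 13.3% of all genes did. They were Spi1 (PU.1) by 1.36, Ikzf1 (Ikaros) by 0.96, Irf8 by 0.92, Pou2f2 (Oct-2) by 0.76 and Mef2c by 0.64, all of which are also expressed in myeloid cells. For Irf8, SZ-A replicate 5 was at 14.9 FPKM, above the HFD range of 9.51 to 14.7 FPKM.

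The receptors that bind antibody changed as well. Of 7 genes in this list, 5 fell with SZ-A, where 13.3% of all genes fell, and 5 rose with HFD, with or without NC replicate 6, where 21% of all genes rose with all mice. Fcgr1, the high-affinity receptor for IgG, was 3.01 higher in HFD than NC (SE 0.15, limma adjusted p = 1.5e-08), 2.89 higher without NC replicate 6, and fell by 1.56 with SZ-A (SE 0.21, limma adjusted p = 3.7e-04). Fcgr4 fell by 1.47 and Fcer1g, the shared signalling chain, by 1.42. Fcgr2b, the inhibitory receptor that B cells also carry, fell by 0.61 (SE 0.15, limma adjusted p = 0.0109). Fcgrt, the receptor that carries IgG across cells, picked after its values were seen, differed by -0.01 (SE 0.20). The median over the list was -1.26, and that over the 8 macrophage markers was -1.36. A link between the changes of these sets was not tested. Leaving out 1 mouse at a time kept the call with SZ-A of Cd24a in 6, of Cd81 in 2, of Tnfsf13b in 10 and of Zfp521 in 9 of 14 fits, and that of Eaf2 in HFD against NC in 10 of 13.

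**Figure D5:**
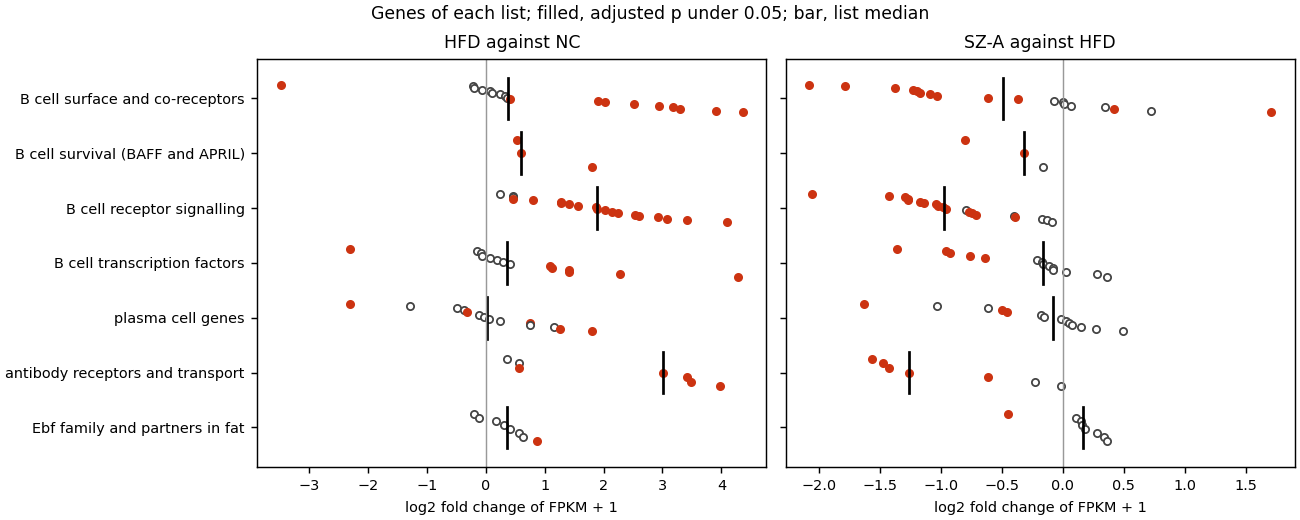
Log2 fold changes of FPKM + 1 (x axis) for the genes of each list in HFD against NC and in SZ-A against HFD. Each point is a gene, filled points have an adjusted p under 0.05 and the bar is the list median. In SZ-A against HFD the medians were -0.97 for receptor signalling, -1.26 for antibody receptors and -0.08 for plasma cell genes.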

How the data were processed

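The authors isolated eWAT RNA, selected messenger RNA with poly-T beads and sequenced it in pairs of reads. Alignment was with HISAT2 to the GRCm38 genome, and featureCounts 1.5.0-p3 is named in the submitters' processing notes. The FPKM deposited by the authors cover 14776 genes, each above 0 in all 20 mice, and were used as they stand. The filter behind the table and the use of strand are not given in the sources used here. Symbols and coordinates came from GENCODE M21. Reads were recovered from FPKM and exon length, and 95.92% to 96.29% of values under 1000 reads came out whole within 0.01 reads.

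Pairs of groups were compared with limma 3.58.1 in R 4.3.3 (lmFit, eBayes with trend) on log2(FPKM + 1). Genes under a mean of 0.1 FPKM in a comparison were left out, with Benjamini-Hochberg adjustment over all genes tested. limma replaced the study's count model because the deposited unit was FPKM. Ratios within a mouse were tested by exact permutation over all regroupings, two-sided. The limma fit was tested on values simulated on the log2 scale, without the FPKM filter. Python 3.11.15 was used with NumPy 2.4.6, pandas 2.3.3 and matplotlib 3.10.9.

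The members, gene lists and tests were chosen with earlier results of these data known. The genes named are the 8 members, the other immunoglobulin genes of the table, the called genes of each list (at most the 4 largest rises and 4 largest falls per comparison where more than 8 were called, of which some are described) and the 5 genes most like the members, with others said to be chosen later. Alternatives were other pseudocounts (0.1 and 0.01), filters, scalings, variance models, the replicate number as a block and leaving out each mouse. Leaving out NC replicate 6 together with another change, the libraries with high Krt18 and the ratios to the Cd79 genes were added after seeing the data. Nothing says that mice were housed separately, and p-values measure the spread between these mice.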

Additional observations from a re-analysis of the deposited data

How the results depend on the processing

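In SZ-A against HFD, 3 members passed and 0 did with all 3 groups in the fit, which takes NC replicate 6 into the spread. Leaving out 1 mouse gave 0 to 3. In HFD against NC 0 passed, and 1 (Ighm) with all 3 groups in the fit with or without NC replicate 6, and with voom or a pseudocount of 0.1 without it. Leaving out 1 mouse gave 0 to 1. In SZ-A against NC it was 0 in each. Among the ratios 1 passed, 4 with a pseudocount of 0.1 and 0 without NC replicate 6.

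The following log2 differences, none of them past the threshold, changed sign, and the cause was not tested. In HFD against NC, array weights gave -0.23 for Cd79a, -0.11 for Cd79b, -0.03 for Ebf1 and -0.01 for Iglc2. Without the libraries of high Krt18, Cd79b was -0.15 and Ebf1 -0.45, and without NC replicate 6 Ebf1 was -0.10 with voom, -0.09 with 3 groups and -0.10 with a pseudocount of 0.1. In SZ-A against HFD, array weights gave 0.17 for Cd79a. In SZ-A against NC, array weights gave -0.02 for Cd79a, -0.34 for Cd79b and -1.18 for Igkc, quantile scaling gave -0.0016 for Cd79b, and a pseudocount of 0.01 gave 0.13 for Jchain. Without the libraries of high Krt18 Cd79a was -0.21, Cd79b -0.74, Ighm -0.89, Igkc -1.79, Ebf1 -0.04 and Igha -0.22. Without NC replicate 6 Cd79b was -0.40 with voom, -0.23 with 3 groups and -0.34 with a pseudocount of 0.1. Ighm was -0.03 in all 3 of these, Igkc -0.85, -0.85 and -0.86, and Igha -0.13, -0.09 and -0.12. Of the ratios, Igha to Ighm in HFD against NC was 0.01 and Ighm to Cd79a in SZ-A against NC -0.18 without NC replicate 6, and Igkc to Cd79b in SZ-A against NC was 0.01 with a pseudocount of 0.1. Leaving out 1 mouse gave -0.09 to 0.63 for Ebf1 in HFD against NC and -0.34 to 0.11 for Cd79a in SZ-A against HFD. In SZ-A against NC it gave -0.23 to 0.33 for Cd79b, -0.03 to 1.37 for Ighm, -0.85 to 0.62 for Igkc and -0.09 to 0.57 for Igha.

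Replicate numbers did not pair the mice, since 7 of 19 pairs had a correlation of deviations above 0.1 and 1 was best with its own number. With the number as a block 3 members passed in SZ-A against HFD and 0 in each other comparison, Cd79b in SZ-A against NC was -0.10 and Igkc -0.01. Of 2844 alternative values over all genes named, 2619 kept their direction and side of the threshold. Cd79a, Jchain and Iglc2 in NC replicate 6 each rest on 1 read, which limits any statement on them there.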
